A study of Mus musculus with 53 samples.

Results

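The genes of fatty acid oxidation and ketone body use were followed in the sciatic nerve, the large mixed nerve of the hind limb, in 8 groups of mice. They were 35 genes of the 49568 listed for each nerve, taken by symbol for their known place in mitochondrial or peroxisomal oxidation, its regulation, ketone body metabolism or the handling of acyl-CoA, and not for how they were measured here. RNA from 53 nerve samples of C57BL/6J mice was sequenced, and the labels put them in SD (standard diet), HFD (high-fat diet), HFD-STZ (the same diet plus streptozotocin, a toxin of insulin-producing beta cells) and DR (dietary reversal) groups. SD mice ate the standard diet throughout, and there were 5 at 16 weeks of age and 8 at 24 weeks. HFD mice ate a diet with 60% of kcal from fat from 5 weeks of age, and there were 7 at 16 weeks and 7 at 24 weeks. HFD-STZ mice ate this diet and were given streptozotocin when 12 weeks old, first 75 mg/kg and 3 days later 50 mg/kg, and there were 5 at 16 weeks and 8 at 24 weeks. The 7 HFD-DR and 6 HFD-STZ-DR mice were moved from the high-fat diet to a control diet at 16 weeks of age, stayed on it for 8 weeks and were examined at 24 weeks. The series' description gives this diet 13% of kcal from fat, whereas the study's own text makes it the diet of the SD mice, with a lower fat content. Every group carries the same genetic background, and the HFD-STZ-DR mice share both the early high-fat diet and streptozotocin with the HFD-STZ mice.

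Long-chain fatty acids enter mitochondria as carnitine esters, are shortened in a repeated cycle of dehydrogenation, hydration, oxidation and thiolysis, and give their electrons to the respiratory chain through electron transfer flavoprotein. Very-long-chain fatty acids are first shortened in peroxisomes, and the liver turns surplus acetyl-CoA into ketone bodies that other tissues oxidise. Schwann cells, the myelinating glia of peripheral nerve, can use this pathway, and so do skeletal muscle and adipose tissue, which lie against the sciatic nerve along its course.

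The authors deposited log2 values that they had normalized between samples, so each difference below is a log2 fold change, and levels of different genes are not compared because no source used here says whether gene length enters them. A gene was tested in a comparison if its mean over the samples compared reached 3.32, the log2 of 10. A gene is said to have risen or fallen only where its adjusted p-value in limma was under 0.05, and the share of all genes past the same threshold is given beside each count of members. Of the 35 genes, 34 passed this filter in every comparison. Cpt1b, the muscle form of the outer-membrane carnitine palmitoyltransferase, did not, and its values lay between -0.23 and 0.49 in all 53 libraries. A readthrough gene on the same strand, Gm44502, covers 81.4% of its exon bases, so the low value of Cpt1b is not read as absence of its RNA.

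The libraries held RNA of other tissues in amounts that differed widely between mice. A score was taken as the mean log2 value of fixed marker genes. The 8 skeletal muscle markers scored between 6.80 and 17.3, and the 6 white adipocyte markers between 7.93 and 13.8. The 6 Schwann cell markers scored between 16.6 and 17.5. No defining marker of white fat, brown fat or muscle was at 0 in any library. The lowest deposited value was -2.39, however, so a value above 0 does not by itself show that a marker's RNA was present. Among the brown adipocyte markers, the lowest values of Ucp1, Cidea and Elovl3 were 2.21, 3.07 and 1.27, below the filter level for testing. That of Otop1 was 9.72. In all, 5 libraries had a muscle score above 15, namely SD 16-week replicate 2, SD 24-week replicate 5, HFD 24-week replicate 1, HFD-DR replicate 5 and HFD-STZ-DR replicate 4. The last 2 also had the highest median deviation of the members from their means, 0.82 and 0.68, and medians that turn on them are given with and without them. In bulk RNA, a change in the number of cells of a type and a change in RNA per cell cannot be told apart. The labels do not number replicates, so replicates are numbered here in the order of listing. The p-values judge differences against the spread between these nerves, which limma moderates by that of all genes tested.

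Most of the 35 genes differed little between groups. The range of the 8 group means was under 0.5 on the log2 scale for 26 genes and 0.5 or more for 9, its median was 0.35, and the median spread between samples of one group was 0.31 (pooled SD). The widest ranges belonged to Acsm3 (1.88), Bdh1 (1.13), Pdk4 (0.95), Acsm5 (0.89) and Acot1 (0.76). Acsm3 and Acsm5 encode medium-chain acyl-CoA synthetases of the mitochondrial matrix, Bdh1 the enzyme that interconverts the ketone bodies acetoacetate and beta-hydroxybutyrate, Pdk4 the kinase that turns off pyruvate dehydrogenase when fat is burned, and Acot1 a cytosolic thioesterase that frees fatty acids from long-chain acyl-CoA. For Bdh1 and Acsm5 the pooled SD between samples was 0.88 and 0.80, not far from the range of their means, whereas for Acot1 it was 0.24. Of the 35 genes, 19 had their lowest group mean in HFD-STZ mice at 16 weeks and 10 their highest in SD mice at 24 weeks. The same counts were not made over all genes, and the members moved together, as described below. The mean muscle score was 7.94 in the former group, the lowest of the 8, and 11.7 in the latter, while the highest was 12.6 in HFD-DR mice. Their mean white adipocyte scores were 11.2 and 12.0, neither the lowest (10.1, SD mice at 16 weeks) nor the highest (12.6, HFD-STZ mice at 24 weeks).

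**Figure D1:**
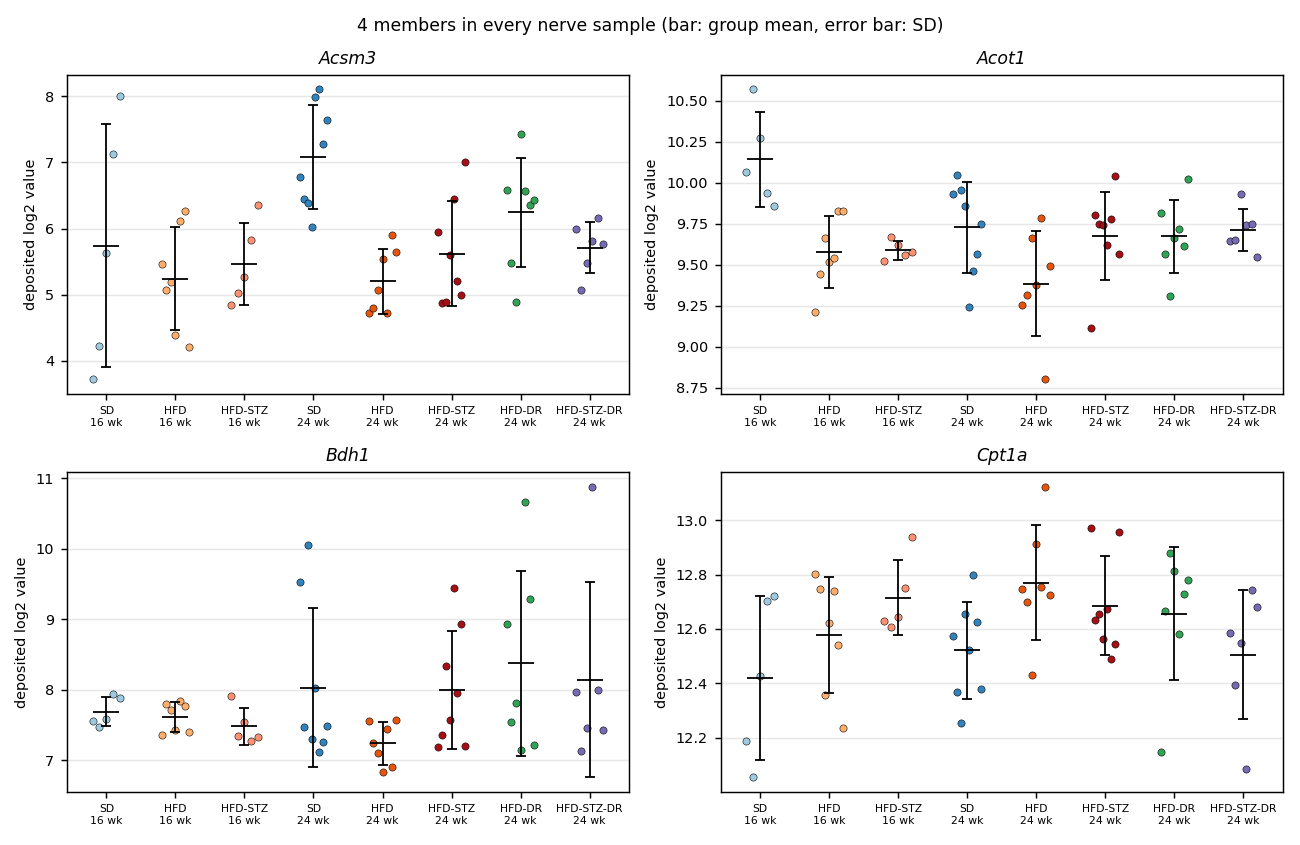
Log2 values of Acsm3, Acot1, Bdh1 and Cpt1a in every sample of the 8 groups, with bars for group means and error bars for the SD. Acsm3 lies between 6.03 and 8.11 in SD mice at 24 weeks and between 4.72 and 5.91 in HFD mice of that age, while for Bdh1 single samples reach above 10 in the SD, HFD-DR and HFD-STZ-DR groups.

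The comparison of HFD with SD mice at 24 weeks asks what a long high-fat diet alone changed in the nerve. A single member passed the threshold, Acsm3, which was 3.68-fold lower in HFD mice. Its values in the 8 SD samples had a lowest of 6.03, a median of 7.03 and a highest of 8.11, and those in the 7 HFD samples had a lowest of 4.72, a median of 5.07 and a highest of 5.91. All 7 HFD samples lay below every SD sample. The log2 difference was -1.88 with a standard error of 0.32 (limma adjusted p = 0.0224, 2-sided exact permutation p = 0.000311). The adjusted p-value lost the threshold without SD replicate 7 (0.0672) or 8 (0.0642), and without HFD replicate 1 (0.0773), 4 (0.0516) or 5 (0.0553), while the difference stayed between -2.03 and -1.73. Without the 2 high-muscle libraries of these groups it was -1.67 with an adjusted p of 0.102. With the white adipocyte score as a covariate it was -2.12 with an adjusted p of 0.000530. Of the 6 markers in that score, 4 were higher and 2 lower in HFD mice, with differences from -1.87 to +3.30. At an unadjusted p under 0.05, 2 of them were higher and 1 lower, so the score averages opposite differences here.

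Acsm3 lies at chr7:119760923-119787513 on the plus strand (GRCm38, GENCODE M21), and 39.8% of its exon bases are shared with Eri2, an exonuclease gene read from the opposite strand. The libraries were described as non-stranded, so reads in the shared bases cannot be assigned to either gene. The log2 value of Eri2 itself had group means between 8.15 and 8.51, and in HFD against SD mice at 24 weeks it differed by +0.18 (limma adjusted p = 0.592), in the other direction from Acsm3. The 300-base window around the RefSeq start of Acsm3 (GRCm38.p6, chr7:119760673-119760972, plus strand) is shown because this gene carries the only call among the members in a comparison of groups. It is printed in lower case throughout, since the nuclear receptor core motif AGGTCA, searched on both strands and marked by capitals in the windows further on, does not occur in these letters.
Acsm3: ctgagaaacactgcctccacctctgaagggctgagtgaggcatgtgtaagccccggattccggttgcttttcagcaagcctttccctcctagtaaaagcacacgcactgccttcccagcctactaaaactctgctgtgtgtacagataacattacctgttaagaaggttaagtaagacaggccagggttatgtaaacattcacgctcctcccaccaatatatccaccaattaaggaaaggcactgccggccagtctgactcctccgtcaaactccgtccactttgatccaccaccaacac

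The other members moved less in HFD mice at 24 weeks. Of the 34 tested, 10 were higher and 24 lower, with a median difference of -0.094 against 0.0077 over all 18191 genes tested, and of -0.021 without SD replicate 5. The adjusted threshold was passed by 1 member and by 0.121% of all genes, and an unadjusted p under 0.05 was reached by 3 members (8.82%) and by 9.05% of all genes, so the members' share was near the background. Cpt1a, the widely expressed outer-membrane carnitine palmitoyltransferase that commits fatty acids to oxidation, was at 12.25, 12.55 and 12.80 in SD mice (lowest, median and highest) and at 12.43, 12.75 and 13.12 in HFD mice. Both groups of Cpt1a overlapped, and the difference of +0.25 (SE 0.10) had an adjusted p of 0.455 in limma and a 2-sided exact permutation p of 0.0275. Acot1 was at 9.24, 9.81 and 10.05 in SD and at 8.80, 9.38 and 9.78 in HFD mice, again with overlap, and its difference of -0.34 (SE 0.15) had an adjusted p of 0.507 in limma and a 2-sided exact permutation p of 0.0427. Beside these values, all 8 muscle markers were lower in HFD mice (median -1.79, none with an unadjusted p under 0.05), and with the muscle score as a covariate the members' median was 0.0013.

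HFD-STZ mice at 24 weeks, the study's model of type 2 diabetes, were compared with the same SD mice. Acsm3 was again the member furthest below SD, at 4.87, 5.40 and 7.01 (lowest, median and highest of 8), and 6 of the 8 samples lay below every SD sample. Its difference was -1.46 (SE 0.37), with an adjusted p of 0.388 in limma and a 2-sided exact permutation p of 0.00389, so it did not pass the threshold across genes. Of the 34 members, 15 were higher and 19 lower (median -0.032, all genes 0.00056), 0 passed the adjusted threshold against 0.0336% of all 17846 genes, and 1 (2.94%) had an unadjusted p under 0.05 against 5.99%. Without SD replicate 5 the median turned to 0.027, and with the muscle score as a covariate to 0.048, beside 8 of 8 muscle markers lower in HFD-STZ mice (median -1.89). Between HFD-STZ and HFD mice at this age 24 members were higher and 10 lower (median +0.052, all genes -0.0089, and below 0 without HFD replicate 2 or HFD-STZ replicate 5, at the lowest -0.011). Here 0 members and 0% of 18117 genes passed the adjusted threshold, and 1 member (2.94%) against 5.59% of genes had an unadjusted p under 0.05. That member was Bdh1, at 6.83, 7.25 and 7.58 in HFD and 7.20, 7.76 and 9.44 in HFD-STZ mice, with 4 of 8 HFD-STZ samples above every HFD sample. Its difference was +0.76 (SE 0.31, limma adjusted p = 0.785, 2-sided exact permutation p = 0.0375). Acsm3 differed by +0.42 between these groups, and their values overlapped. The 3 comparisons share samples, so their values are set side by side and not counted as separate support.

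**Figure D2:**
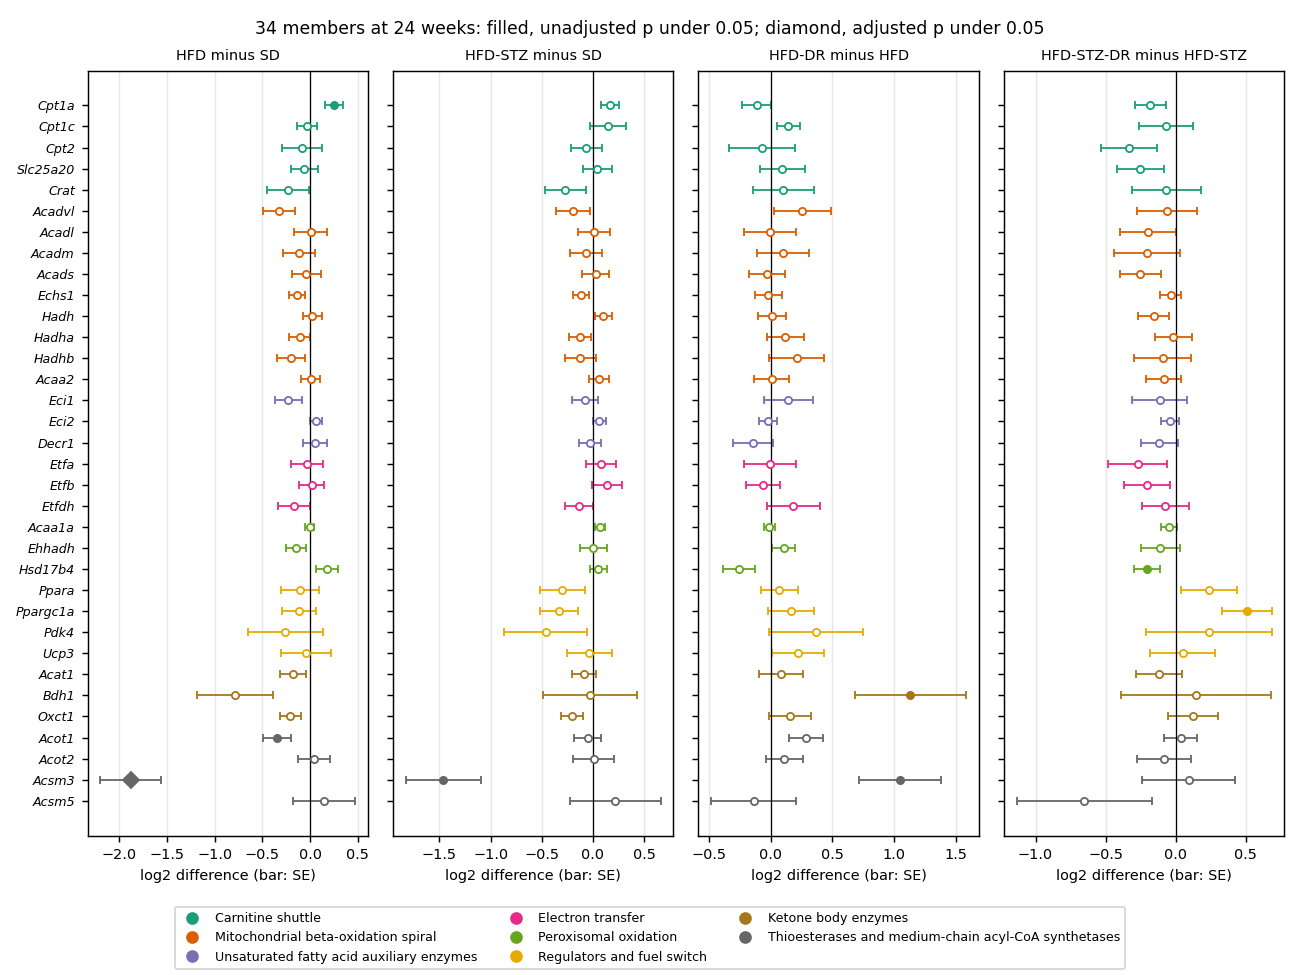
Log2 difference and standard error of the 34 members tested in HFD minus SD, HFD-STZ minus SD, HFD-DR minus HFD and HFD-STZ-DR minus HFD-STZ mice at 24 weeks, coloured by role, with filled points for an unadjusted p under 0.05 and a diamond for an adjusted p under 0.05. The only diamond is Acsm3 in HFD minus SD mice, at -1.88, and most other points lie within 0.5 of 0.

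Dietary reversal was compared with continued high-fat feeding in each model. In HFD-DR against HFD mice, 22 members were higher and 12 lower, with a median of +0.099 (all genes -0.0019) that turned to -0.053 without HFD-DR replicate 5. The adjusted threshold was passed by 0 members and 0.0108% of 18475 genes, and an unadjusted p under 0.05 by 2 members (5.88%) and 6.72% of genes. Acsm3 was at 4.89, 6.43 and 7.43 (lowest, median and highest) in HFD-DR mice, and 5 of 7 samples lay above every HFD sample. The difference of Acsm3 was +1.05 (SE 0.33), with a limma adjusted p of 0.578 and a 2-sided exact permutation p of 0.0163. Bdh1 was at 7.14, 7.81 and 10.66 in HFD-DR mice, with 4 of 7 samples above every HFD sample, and differed by +1.13 (SE 0.45, limma adjusted p = 0.669, 2-sided exact permutation p = 0.0350). The muscle markers moved alongside, with 8 of 8 higher in HFD-DR mice, 6 of them with an unadjusted p under 0.05 and a median of +2.79. Of the white adipocyte markers 5 of 6 were lower (median -1.08, 3 lower and 1 higher at an unadjusted p under 0.05), and 5 of 5 macrophage markers were lower (median -0.56, 3 with an unadjusted p under 0.05). With the muscle score as a covariate the members' median was -0.10 and the difference of Bdh1 +0.64.

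In HFD-STZ-DR against HFD-STZ mice the balance was the other way, with 8 members higher and 26 lower and a median of -0.085 (all genes 0.0069), which was -0.24 without HFD-STZ-DR replicate 4. The adjusted threshold was passed by 0 members and 0.084% of 17862 genes, and an unadjusted p under 0.05 by 2 members (5.88%) and 6.48% of genes. Ppargc1a, the coactivator of mitochondrial and oxidative genes, was at 9.02, 9.52 and 9.96 in HFD-STZ and 9.56, 10.04 and 10.61 in HFD-STZ-DR mice, with 4 of 6 reversal samples above every HFD-STZ sample. The difference of Ppargc1a was +0.51 (SE 0.18), with a limma adjusted p of 0.473 and a 2-sided exact permutation p of 0.0167. Hsd17b4, the peroxisomal multifunctional enzyme, was at 12.29, 12.73 and 12.89 in HFD-STZ and 12.36, 12.40 and 12.64 in HFD-STZ-DR mice. The ranges of Hsd17b4 overlapped, and its difference was -0.21 (SE 0.09, limma adjusted p = 0.734, 2-sided exact permutation p = 0.0506), which became +0.040 with the white adipocyte score as a covariate. All 6 white adipocyte markers were lower in HFD-STZ-DR mice, 5 of them with an unadjusted p under 0.05 (median -2.11), and all 8 muscle markers were higher (median +1.0, none with an unadjusted p under 0.05). The members' median was +0.12 with the white adipocyte score as a covariate. Acsm3 differed by +0.09 (SE 0.33) here. The test of whether reversal acted differently in the 2 models gave -0.95 for Acsm3 (SE 0.49, limma adjusted p = 1.00), and 0 members had an unadjusted p under 0.05 for this interaction, against 1.71% of genes, with 0% of genes past the adjusted threshold.

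Against SD mice of the same age, the reversed groups asked how far the nerve returned. Acsm3 had the lower mean in both, with a difference of -0.83 (SE 0.38) in HFD-DR and -1.37 (SE 0.32) in HFD-STZ-DR mice. In the HFD-STZ-DR samples it lay at 5.07, 5.79 and 6.17 (lowest, median and highest), with 5 of 6 samples below every SD sample. The limma adjusted p-values of Acsm3 were 0.925 and 0.313 and the 2-sided exact permutation p-values 0.0673 and 0.00266, so neither passed the threshold. Hsd17b4 differed by -0.15 in HFD-STZ-DR against SD mice (SE 0.07, limma adjusted p = 0.510, 2-sided exact permutation p = 0.0316). In HFD-DR against SD mice 16 members were higher and 18 lower (median -0.016, all genes -0.0092), 0 passed the adjusted threshold as did 0% of 18145 genes, and 1 member (2.94%) against 5.14% of genes had an unadjusted p under 0.05. That median lay between -0.15 without HFD-DR replicate 5 and +0.044 without HFD-DR replicate 2 or SD replicate 5, and was also above 0 without SD replicate 3 or HFD-DR replicate 3, 4 or 7, and with the white adipocyte score as a covariate (+0.061). In HFD-STZ-DR against SD mice 6 were higher and 28 lower (median -0.15, all genes -0.0078, and -0.29 without replicate 4), with 0 members and 0% of 17889 genes past the adjusted threshold and 2 members (5.88%) against 9.16% of genes at an unadjusted p under 0.05. All 6 white adipocyte markers (median -1.53, 5 with an unadjusted p under 0.05) and all 8 muscle markers (median -0.98, none) were lower in these HFD-STZ-DR mice. The median of the members was +0.020 and the difference of Acsm3 -0.65 with the white adipocyte score as a covariate. Between the reversed groups, HFD-STZ-DR minus HFD-DR, 4 members were higher and 30 lower (median -0.15, all genes -0.0066). That median ran from -0.31 without HFD-STZ-DR replicate 4 to -0.0066 without HFD-DR replicate 5, and was +0.070 with the muscle score as a covariate. All 8 muscle markers (median -1.87) and all 6 white adipocyte markers (median -1.03) were lower in HFD-STZ-DR mice, none with an unadjusted p under 0.05, and 2 of 3 brown adipocyte markers were lower with one. Here 0 members had an unadjusted p under 0.05 against 3.58% of 18189 genes, and 0% of genes passed the adjusted threshold. Acsm3 differed by -0.53 (SE 0.34) there.

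At 16 weeks, before reversal began, Acot1 separated SD mice from both fat-fed groups. Its values in the 5 SD samples were 10.06, 10.57, 10.27, 9.94 and 9.86, those in the 5 HFD-STZ samples were 9.52, 9.67, 9.62, 9.56 and 9.57, and those in the 7 HFD samples had a lowest of 9.21, a median of 9.54 and a highest of 9.83. No HFD or HFD-STZ sample reached the lowest SD sample. The difference was -0.57 (SE 0.14) in HFD mice, with an adjusted p of 0.286 in limma and a 2-sided exact permutation p of 0.00253. In HFD-STZ mice it was -0.55 (SE 0.12), with an adjusted p of 0.392 and a 2-sided exact permutation p of 0.00794, the smallest that 5 against 5 samples can give. Neither passed the threshold across genes, and both use the same SD samples. How many of all genes separate these groups without overlap was not counted. With the white adipocyte score as a covariate the difference in HFD mice was -0.29. Acot1 shares 12.0% of its 100-base stretches with Acot2, its mitochondrial relative, whose gene starts 21629 bases away, so reads in those stretches could be split by the counting. Acsm3 was scattered in SD mice at this age, at 3.72, 4.22, 5.63, 7.14 and 8.01, and these values spanned nearly the whole range seen in the study, so that its difference of -0.50 in HFD mice (SE 0.67) was smaller than the spread between samples. With all 3 scores (muscle, white and brown adipocyte) as covariates it was -2.96 (limma adjusted p = 0.0976). The differences of Acsm3 were -0.28 (SE 0.73) in HFD-STZ against SD and +0.22 (SE 0.38) in HFD-STZ against HFD mice at this age. The white adipocyte score of the same 5 samples, in the same order, was 7.93, 8.66, 10.5, 11.4 and 12.1.

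No member passed the adjusted threshold at 16 weeks. In HFD against SD mice 24 of 34 members were higher and 10 lower (median +0.094, all genes 0.012, and +0.028 without HFD replicate 6), 0 passed the adjusted threshold against 0.00557% of 17962 genes, and 3 (8.82%) against 8.55% of genes had an unadjusted p under 0.05. Besides Acot1 these were Acsm5, with a difference of +0.87 (SE 0.39, limma adjusted p = 0.572, 2-sided exact permutation p = 0.0770), and Cpt2, the inner-membrane carnitine palmitoyltransferase, with +0.41 (SE 0.19, limma adjusted p = 0.578, 2-sided exact permutation p = 0.0859). Acsm5 was at 3.48, 3.61, 4.84, 5.10 and 5.24 in the SD samples and at 4.53, 5.39 and 6.40 (lowest, median and highest) in the HFD samples, with 4 of 7 above every SD sample. All 6 white adipocyte markers were higher in these HFD mice, 4 of them with an unadjusted p under 0.05 (median +2.29), and with that score as a covariate the difference of Acsm5 was -0.22. In HFD-STZ against SD mice 11 members were higher and 23 lower (median -0.063, all genes 0.022, and -0.011 without SD replicate 5), 0 members and 0% of 17879 genes passed the adjusted threshold, and 3 (8.82%) against 8.41% of genes had an unadjusted p under 0.05. All 8 muscle markers were lower in HFD-STZ than in SD mice (median -1.29, none with an unadjusted p under 0.05) and all 6 white adipocyte markers higher (median +1.01, 1 with an unadjusted p under 0.05).

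Those 3 were Acot1, Echs1 and Cpt1a. Echs1, the short-chain enoyl-CoA hydratase of the mitochondrial cycle, was at 12.35, 12.77, 12.63, 12.45 and 12.58 in SD and at 12.29, 12.33, 12.47, 12.29 and 12.41 in HFD-STZ mice, and 3 of 5 HFD-STZ samples lay below every SD sample. Its difference was -0.20 (SE 0.08, limma adjusted p = 0.586, 2-sided exact permutation p = 0.0476). Cpt1a was at 12.19, 12.06, 12.43, 12.70 and 12.72 in SD and at 12.63, 12.61, 12.64, 12.75 and 12.94 in HFD-STZ mice. The groups overlapped for Cpt1a, with 2 of 5 HFD-STZ samples above every SD sample and a difference of +0.29 (SE 0.13, limma adjusted p = 0.586, 2-sided exact permutation p = 0.103).

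Between HFD-STZ and HFD mice at 16 weeks, 6 members were higher and 28 lower (median -0.17, all genes 0.0018, and -0.098 without HFD replicate 6). No member passed the adjusted threshold, nor did any gene (0% of 18202), and 4 members (11.8%) against 4.88% of genes had an unadjusted p under 0.05, all 4 lower in HFD-STZ mice. They were Echs1 (-0.17), Cpt2 (-0.38), Hsd17b4 (-0.22) and Acadm (-0.29), the medium-chain acyl-CoA dehydrogenase, each with a limma adjusted p of 0.987. All 9 enzymes of the mitochondrial cycle and all 3 of electron transfer had the lower mean in HFD-STZ mice. All 8 muscle markers were also lower there (median -1.47, 1 with an unadjusted p under 0.05), as were 5 of 6 white adipocyte markers (median -1.16, 3 with an unadjusted p under 0.05). With the muscle, white and brown adipocyte scores together as covariates the median of the members was +0.031.

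The comparison of 24 with 16 weeks within a treatment follows age and, for the fat-fed mice, time on the diet. The comparison with the most members at an unadjusted p under 0.05 was that of HFD-STZ mice, where 32 of 34 members were higher at 24 weeks and 2 lower, with a median of +0.22 against 0.0026 over all 17963 genes tested. None passed the adjusted threshold, and neither did any other gene (0%), but 16 members (47.1%) had an unadjusted p under 0.05, all higher, against 12.5% of all genes. These 16 were Cpt2, Slc25a20 and Crat of the carnitine shuttle, 8 of the 9 enzymes of the mitochondrial cycle (Acadvl, Acadl, Acadm, Acads, Echs1, Hadh, Hadhb and Acaa2), Eci1 of the auxiliary enzymes for unsaturated fatty acids, all 3 electron transfer genes (Etfa, Etfb and Etfdh) and Acat1 of the ketone enzymes. No peroxisomal gene, regulator, thioesterase or medium-chain synthetase was among them. The median shift was no smaller in SD mice, at +0.25 with 29 of 34 members higher. There, 11.8% of members had an unadjusted p under 0.05, against 10.5% of all genes. The test given below, of whether the HFD-STZ difference from SD changed with age, had a median of 0.018 over the members. The higher count in HFD-STZ mice is therefore not read as a larger shift than in SD mice.

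**Figure D3:**
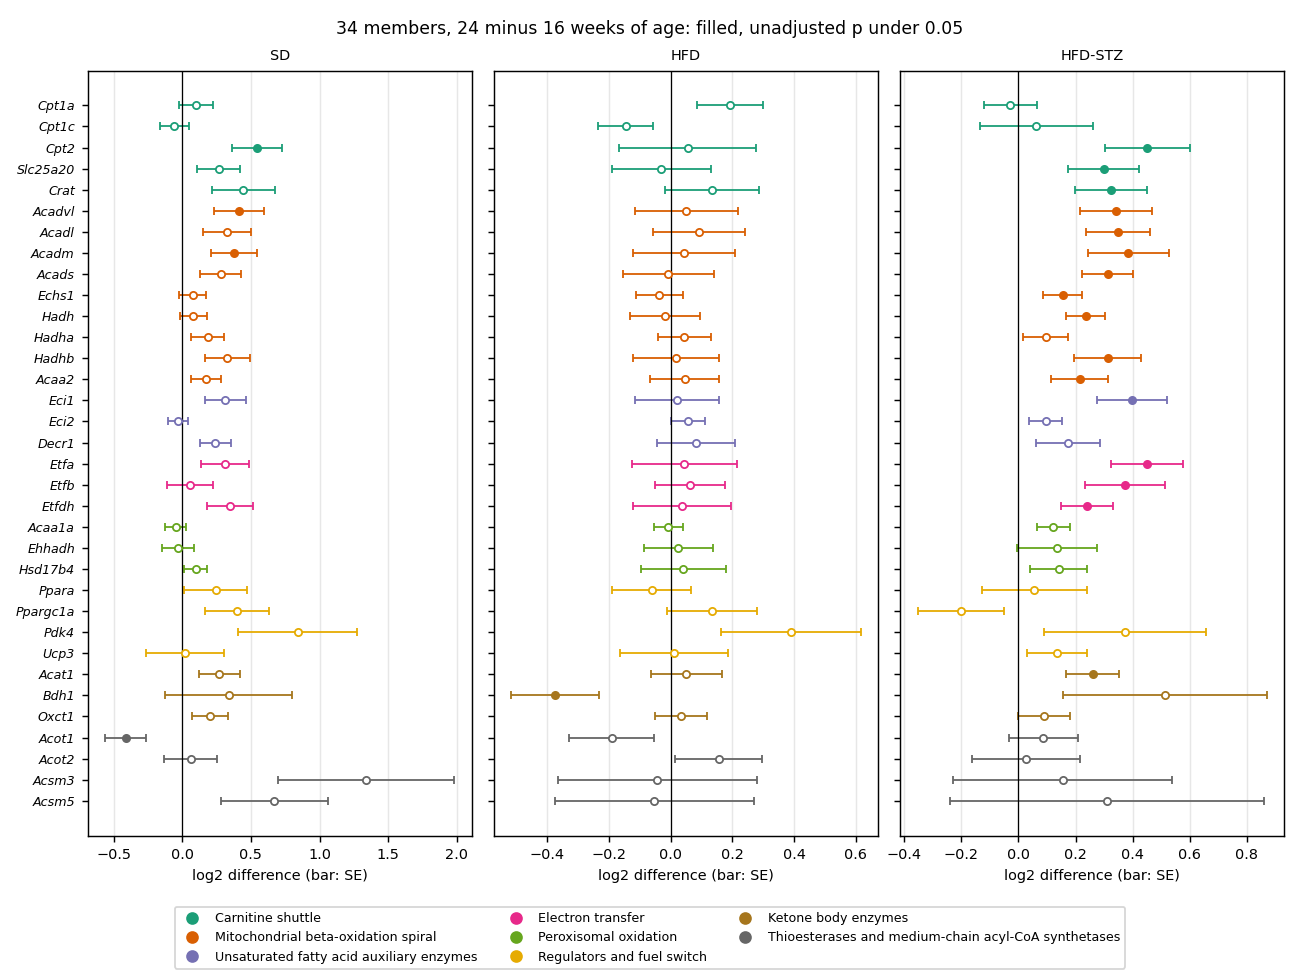
Log2 difference and standard error of the 34 members between 24 and 16 weeks of age within SD, HFD and HFD-STZ mice, coloured by role, with filled points for an unadjusted p under 0.05. Filled points number 4 in SD, 1 in HFD and 16 in HFD-STZ mice, and the horizontal scales of the panels differ.

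Single genes show the size of the shift in HFD-STZ mice. Etfa, the alpha subunit of electron transfer flavoprotein, was at 11.99, 11.99, 12.23, 12.15 and 12.41 in HFD-STZ mice at 16 weeks and at 12.08, 12.66 and 12.92 (lowest, median and highest of 8) at 24 weeks. For Etfa 6 of the 8 later samples lay above every earlier one, and the difference was +0.45 (SE 0.13, limma adjusted p = 0.289, 2-sided exact permutation p = 0.00932). Acads, the short-chain acyl-CoA dehydrogenase, was at 10.46, 10.35, 10.43, 10.38 and 10.53 at 16 weeks and at 10.40, 10.76 and 10.97 at 24 weeks. Here 7 of 8 later samples lay above every earlier one, and the difference of Acads was +0.31 (SE 0.09, limma adjusted p = 0.289, 2-sided exact permutation p = 0.00777). Hadh, the hydroxyacyl-CoA dehydrogenase for medium and short chains, was at 12.36, 12.43, 12.41, 12.35 and 12.48 at 16 weeks and at 12.40, 12.68 and 12.78 at 24 weeks, with a difference of +0.24 (SE 0.07, limma adjusted p = 0.289, 2-sided exact permutation p = 0.00699). Eci1, an isomerase that moves double bonds into the cycle, differed by +0.40 and Acadl, the long-chain acyl-CoA dehydrogenase, by +0.35. Cpt2 differed by +0.45, Acat1, the mitochondrial acetoacetyl-CoA thiolase, by +0.26, and Acadm by +0.39, each with 6 of 8 later samples above every earlier one.

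Markers of other tissues were also higher in HFD-STZ mice at 24 weeks, with 8 of 8 muscle markers (median +1.77, 1 with an unadjusted p under 0.05) and 6 of 6 white adipocyte markers (median +1.37, 5 with an unadjusted p under 0.05). Of the brown adipocyte markers tested 3 of 3 were higher (median +1.38, 2 with an unadjusted p under 0.05), and 6 of 6 Schwann cell markers were lower (median -0.25, 2 with an unadjusted p under 0.05). With the white adipocyte score as a covariate 4 members had an unadjusted p under 0.05, with all 3 scores 3 did, and the median then was +0.047. With the run of consecutive library numbers in the fit of all groups the count was 9. The part of these tissues in the shift was not tested beyond these fits. The median stayed between +0.18 and +0.26 on leaving out each sample in turn.

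In SD mice 29 members were higher and 5 lower at 24 weeks, with a median of +0.25 (all genes 0.013). None passed the adjusted threshold, as 0% of 17788 genes did, and 4 members (11.8%) against 10.5% of genes had an unadjusted p under 0.05. Cpt2 was at 10.11, 10.26, 10.12, 10.70 and 10.89 at 16 weeks and at 10.51, 10.94 and 11.61 at 24 weeks, a difference of +0.54 (SE 0.18, limma adjusted p = 0.435, 2-sided exact permutation p = 0.0210), which was +0.019 with all 3 scores as covariates. Acot1 moved the other way, with a difference of -0.41 (SE 0.15, limma adjusted p = 0.437, 2-sided exact permutation p = 0.0256) and 4 of 8 later samples below every earlier one. Acadm differed by +0.38 and Acadvl, the very-long-chain acyl-CoA dehydrogenase, by +0.41 (42.9% of the exon bases of Acadvl are shared with Dvl2 on the opposite strand), and both were about 0 with all 3 scores as covariates (-0.060 and -0.036). Acsm3 differed by +1.34 (SE 0.64, limma adjusted p = 0.481, 2-sided exact permutation p = 0.0894), and by -0.33 with the white adipocyte score as a covariate. The white adipocyte markers were higher in 6 of 6 at 24 weeks, 5 with an unadjusted p under 0.05 (median +1.93), and the muscle markers in 8 of 8 (median +2.44, none with an unadjusted p under 0.05). Brown adipocyte markers were higher in 3 of 3 (median +1.63, 2 with an unadjusted p under 0.05). As in HFD-STZ mice, 6 of 6 Schwann cell markers were lower (median -0.31, 3 with an unadjusted p under 0.05).

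In HFD mice a single ketone enzyme reached an unadjusted p under 0.05. Of the members 23 were higher and 11 lower (median +0.039, all genes 0.017, and between -0.0089 and +0.10 on leaving out each sample, below 0 without 24-week replicate 1 or 6 or 16-week replicate 3 or 4, and -0.072 with 3 scores as covariates), 0 passed the adjusted threshold against 0.0654% of 18360 genes, and 1 (2.94%) against 5.9% of genes had an unadjusted p under 0.05. This was Bdh1, at 7.36, 7.71 and 7.84 (lowest, median and highest) at 16 weeks and 6.83, 7.25 and 7.58 at 24 weeks, with 4 of 7 later samples below every earlier one. The difference of Bdh1 was -0.37 (SE 0.14, limma adjusted p = 0.793, 2-sided exact permutation p = 0.0221). Acsm3 differed by -0.043 in these mice, and by +0.15 between the same ages in HFD-STZ mice. In the HFD mice 6 of 6 Schwann cell markers were also lower at 24 weeks (median -0.22, 3 with an unadjusted p under 0.05). Brown adipocyte markers were higher in 3 of 3 (median +0.46, none with an unadjusted p under 0.05).

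Whether the diets' differences from SD changed between ages was tested as an interaction. For HFD, the interaction was above 0 for 7 members and below 0 for 27 (median -0.23, all genes -0.0045). Here 0 members had an unadjusted p under 0.05 against 1.67% of 18087 genes, and 0% passed the adjusted threshold. For HFD-STZ, it was above 0 for 18 members and below 0 for 16 (median 0.018, all genes -0.014). In this test 2 members (5.88%) had an unadjusted p under 0.05 against 4.68% of 17871 genes, and 0% passed the adjusted threshold. The 2 were Acot1, whose HFD-STZ minus SD difference was 0.50 higher at 24 than at 16 weeks, and Ppargc1a, for which the interaction was -0.60, both with a limma adjusted p of 0.757. For Acsm3 the interactions were -1.38 (SE 0.74) with HFD and -1.19 (SE 0.79) with HFD-STZ. The fall of Acsm3 in HFD mice at 24 weeks is therefore not shown to differ from the value at 16 weeks.

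Within groups, the members moved together from nerve to nerve. Of the 561 pairs among the 34 members, 455 had a positive correlation of their deviations from the group means (median r 0.50 over 53 samples), and the first principal component held 59.2% of the members' variance, against 19.6% for all 18069 genes. These are descriptions, and all pairs share the same libraries. The 2 shares come from sets of very unlike size, and pair correlations were not computed over all genes, so neither measures how unusual the members are. To see what the members moved with, each was fitted on the 53 samples with group and the muscle, white adipocyte and brown adipocyte scores as terms, so that a slope is the log2 change per unit of a score. With the muscle score 23 members rose, 1 fell and 10 did not pass, where 8.55% of all 18061 genes rose and 1.4% fell. With the white adipocyte score 25 rose and 2 fell, where 17.5% of all 18063 genes rose and 15% fell. With the brown adipocyte score 0 rose and 0 fell, where 0.0443% of 18066 genes rose and 0.0111% fell.

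**Figure D4:**
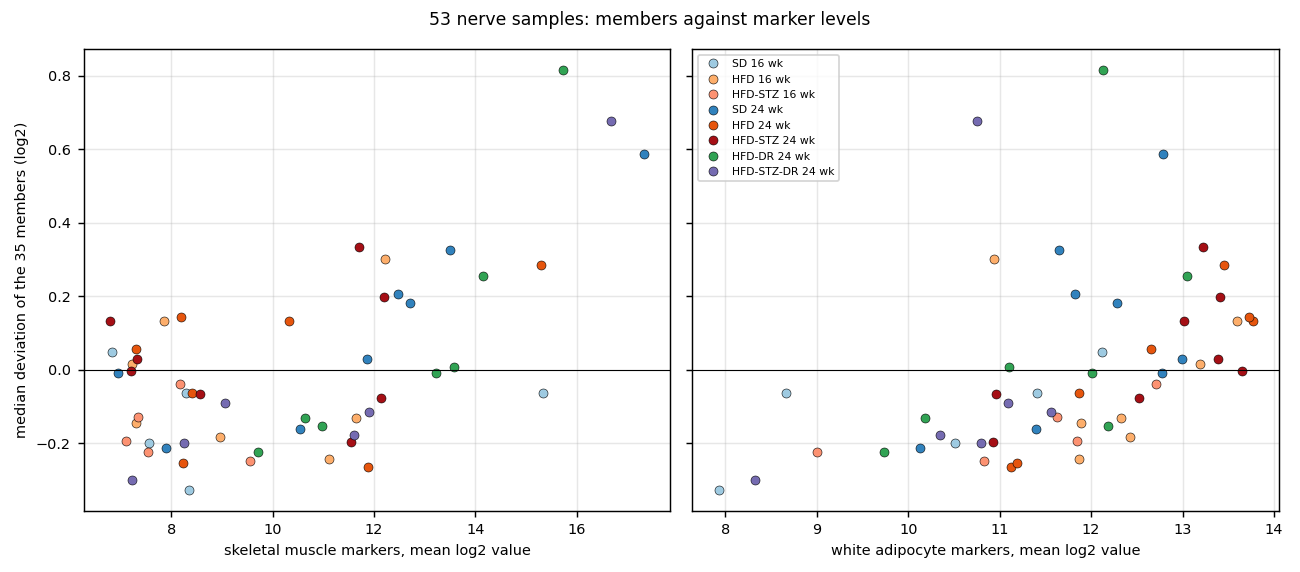
Median deviation of the 35 members from their means over all samples, in log2 units, against the skeletal muscle score and the white adipocyte score of each sample, 1 point per sample, coloured by group. The highest points, at 0.82 for an HFD-DR and 0.68 for an HFD-STZ-DR sample, have muscle scores above 15.

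The slopes are given by role, with no test between roles. On the muscle score all 9 genes of the mitochondrial cycle rose, as did all 3 of electron transfer, all 3 auxiliary enzymes, all 3 ketone enzymes, 3 of the 5 carnitine shuttle genes tested and 2 of the 4 regulators. None of the 3 peroxisomal genes and none of the 4 thioesterases and synthetases did, and the peroxisomal slopes lay between -0.0044 and -0.0024. On the white adipocyte score 2 of the 3 peroxisomal genes and 2 of the 4 thioesterases and synthetases rose, as did all 9 of the mitochondrial cycle. The steepest on the muscle score were Pdk4 (0.20 per unit, SE 0.03), Bdh1 (0.17, SE 0.04) and Ucp3 (0.12, SE 0.02), an uncoupling protein of muscle and brown fat mitochondria. Cpt1a alone fell with the muscle score, by -0.035 per unit (SE 0.01, limma adjusted p = 0.00683). On the white adipocyte score the steepest were Acsm5 (0.56, SE 0.06), Acsm3 (0.44, SE 0.08) and Cpt2 (0.24, SE 0.03), and those that fell were Acot1 (-0.096, SE 0.03) and Cpt1c (-0.091, SE 0.03), the brain-type relative of Cpt1a.

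The muscle slopes rest on few libraries. Without the 5 libraries with a muscle score above 15, 2 members passed, Bdh1 (0.18, limma adjusted p = 0.0308) and Pdk4 (0.14, limma adjusted p = 0.0189), while 28 of 34 slopes were positive and 12 of these had an unadjusted p under 0.05. In that fit 1.27% of all 18071 genes rose. The 5 libraries were chosen by their score after the data were seen. The white adipocyte slopes that rose numbered 24 in the same fit.

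**Figure D5:**
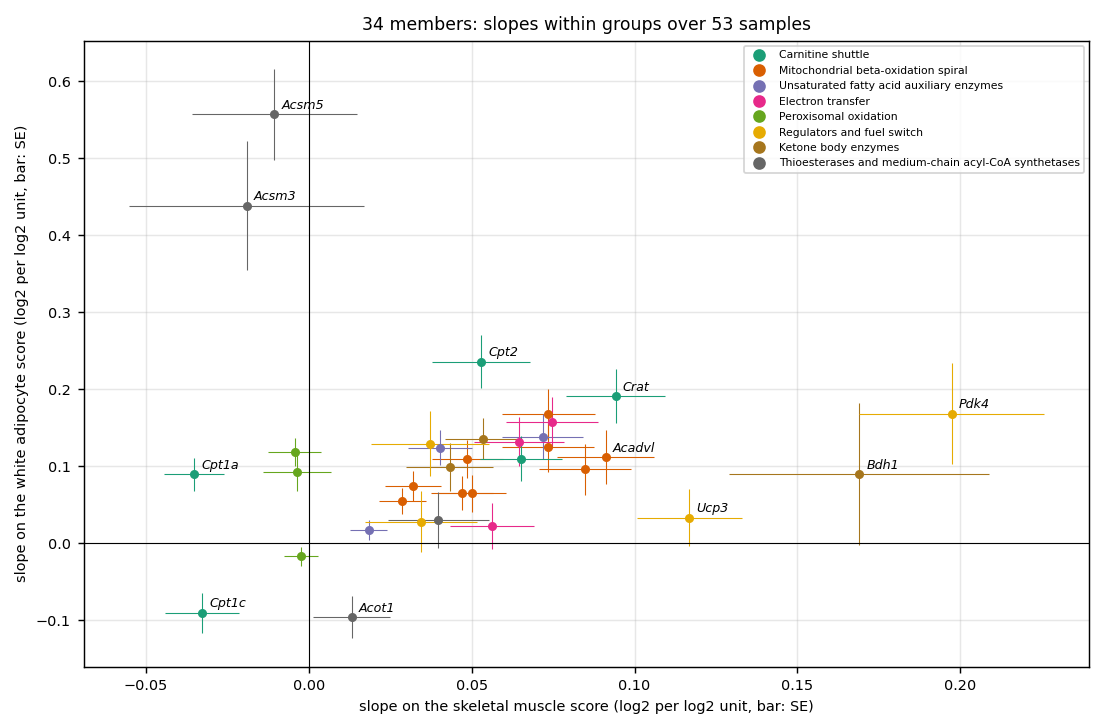
Slope of each of the 34 members on the skeletal muscle score (horizontal) and on the white adipocyte score (vertical), in log2 units per unit of score with standard errors, coloured by role. Pdk4, Bdh1 and Ucp3 lie furthest right, Acsm5 and Acsm3 highest, and Acot1 and Cpt1c lowest.

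Promoters are shown for 4 members with contrasting slopes, so that their sequence can be read beside the values. RefSeq windows of 300 bases around the start (GRCm38.p6) were at hand for 29 of the 35 genes, 30 windows in all. The core motif AGGTCA, read on both strands, occurred in 6 of the 30 (20%), belonging to Acadm, Acadvl, Cpt1a, Cpt1c, Echs1 and Ucp3, and in 16.3% of all 32851 windows. A direct repeat of AGGTCA with 1 base between the copies, the pattern of PPAR response elements, occurred in 0 of the 30 and in 0.0396% of all windows, and TNAAGGTCA, the pattern of estrogen-related receptors, which overlaps AGGTCA, in 0 and in 1.28%. Such a match is a description of letters and not a binding site. In the lines that follow, the capitals mark AGGTCA or its reverse complement. Pdk4 (chr6:5496229-5496528, minus strand) and Ucp3 (chr7:100472741-100473040, plus strand) had the steep muscle slopes, Acadvl (chr11:70015379-70015678, minus strand) rose with both scores, and Cpt1a (chr19:3323051-3323350, plus strand) fell with the muscle score. The motif starts 149 and 44 bases before the start of Ucp3, 87 before that of Acadvl and 94 before that of Cpt1a.
Pdk4: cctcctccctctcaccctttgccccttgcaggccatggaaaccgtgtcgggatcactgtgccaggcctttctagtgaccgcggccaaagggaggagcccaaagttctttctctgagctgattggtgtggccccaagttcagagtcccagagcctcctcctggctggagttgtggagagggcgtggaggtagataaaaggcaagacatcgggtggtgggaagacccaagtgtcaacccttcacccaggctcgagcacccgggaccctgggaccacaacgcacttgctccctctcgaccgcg
Ucp3: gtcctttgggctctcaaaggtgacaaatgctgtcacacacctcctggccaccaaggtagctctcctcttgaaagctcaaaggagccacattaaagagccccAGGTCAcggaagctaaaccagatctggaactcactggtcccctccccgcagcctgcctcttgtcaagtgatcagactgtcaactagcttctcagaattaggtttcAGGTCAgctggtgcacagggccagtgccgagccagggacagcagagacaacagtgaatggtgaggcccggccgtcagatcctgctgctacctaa
Acadvl: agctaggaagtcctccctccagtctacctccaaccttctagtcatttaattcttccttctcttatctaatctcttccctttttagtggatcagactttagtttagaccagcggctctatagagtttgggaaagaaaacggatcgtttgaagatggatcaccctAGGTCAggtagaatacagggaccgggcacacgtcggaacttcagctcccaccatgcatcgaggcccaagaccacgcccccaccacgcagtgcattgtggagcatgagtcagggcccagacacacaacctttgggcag
Cpt1a: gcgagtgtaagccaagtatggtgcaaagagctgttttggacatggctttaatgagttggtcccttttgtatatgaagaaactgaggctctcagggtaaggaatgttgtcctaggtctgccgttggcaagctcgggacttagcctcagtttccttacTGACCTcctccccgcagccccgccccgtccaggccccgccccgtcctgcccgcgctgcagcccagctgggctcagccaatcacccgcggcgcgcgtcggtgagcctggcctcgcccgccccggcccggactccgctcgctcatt

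Of the neighbouring genes of the pathway, 29 further oxidation genes, 4 of ketone body metabolism, 5 PPAR-alpha targets and 14 other regulators were tested in HFD against SD mice at 24 weeks, and none passed the adjusted threshold in that comparison. An unadjusted p under 0.05 was reached by 3 of the oxidation genes, 1 of the ketone body genes (Aacs, -0.43), 2 of the PPAR-alpha targets and 1 of the other regulators, beside 9.05% of all genes. Angptl4, a PPAR target that inhibits lipoprotein lipase, differed by +0.71 (limma adjusted p = 0.266) and Plin2, a lipid droplet coat protein, by +0.59. Acacb, which makes the malonyl-CoA that inhibits Cpt1a, differed by -0.96. In HFD-STZ-DR against HFD-STZ mice Angptl4 and Plin2 stood the other way, at -0.90 (limma adjusted p = 0.0503) and -0.77, beside the lower white adipocyte markers given above. In HFD-STZ mice between 16 and 24 weeks, 6 of 29 further oxidation genes were higher and 1 lower at an unadjusted p under 0.05, as were 3 and 1 of 5 PPAR-alpha targets and none of the 4 ketone body genes, beside 12.5% of all genes. Of 6 genes of mitochondrial content outside the pathway 6 had the higher mean at 24 weeks and 3 an unadjusted p under 0.05, among them Idh3a, a subunit of isocitrate dehydrogenase (+0.35, limma adjusted p = 0.289). Prkaa2, a catalytic subunit of the energy sensor AMPK, differed by +0.78 (limma adjusted p = 0.279) and Pex11a, a peroxisome division factor, by +0.49. Among all these lists and comparisons of groups, only Aacs, a cytosolic synthetase that turns acetoacetate into a precursor of lipids, passed the adjusted threshold. It fell in HFD mice between 16 and 24 weeks (-0.60, SE 0.08, limma adjusted p = 0.0165). Aacs also had the lower mean at 24 weeks in SD mice (-0.51) and HFD-STZ mice (-0.29), without passing the adjusted threshold in either. The call of Aacs was lost without HFD 24-week replicate 7 (0.0564) or HFD 16-week replicate 5 (0.0612) or 6 (0.0622), and with a variance prior without trend (0.0564).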

How the data were processed

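Per the labels, RNA was taken from 53 mouse sciatic nerve samples in 8 groups and sequenced after selection of polyadenylated RNA. The submitters' processing notes name HISAT2, featureCounts, DESeq2 and the build mm10, with no versions. The authors deposited 1 log2 value per gene and sample for 49568 genes, normalized between samples by a method not given in the sources used here. These values are not counts, so count models were not used, the depth behind each gene is unknown, and the spread between samples is the only error available.

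Groups came from the labels. Each comparison was fitted on its own samples with limma 3.58.1 in R 4.3.3 (empirical Bayes with a trend on mean expression), over genes whose mean log2 value reached 3.32 (the log2 of 10), without the 25 genes that have any value above 22. Benjamini-Hochberg adjustment ran over all genes tested, with a threshold of 0.05. Interactions were fitted on the 4 groups they involve. For single members, 2-sided exact permutation tests were run in Python 3.11.15 (numpy 2.4.6, pandas 2.3.3), and plots were drawn with matplotlib 3.10.9. The fits were tested on simulated data.

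A member was given its own test values where its unadjusted p was under 0.05, for at most 8 per comparison, and Acsm3, which passed the adjusted threshold, in every comparison. Genes of other lists were named where past the adjusted threshold or among the lowest p-values of a list. The members, lists and markers were chosen with earlier results of these data known. Alternatives were no filter, a filter in every sample, all 8 groups in 1 fit with and without a covariate for the run of adjacent library numbers, no trend, robust empirical Bayes, centring on the sample median, marker scores as covariates, and leaving out each sample. The fits with 3 scores together, without libraries with a muscle score above 15, the slopes and the alternatives of Aacs were added after the data were seen. Gene positions came from GENCODE M21 and promoters from RefSeq. A gene of the ketone body list is not reported here and not counted in it.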

Additional observations from a re-analysis of the deposited data

Results flagged for a closer look

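The median deviation of the members from their means in HFD-STZ-DR replicate 4 was 0.678 on the log2 scale, far from the other 5 samples of its group, which had a lowest value of -0.30, while the median of all 6 was -0.15. The gap to the nearest of the others exceeded Dixon's critical value. By the same measure this sample was marked for 22 members, and HFD-DR replicate 5 was marked for 10. In all, 44 of 280 sets of a member and a group were marked, where chance alone marks about 1 in 20, and members share libraries and are not independent. Both samples had a muscle score above 15 and come from the same run of 8 consecutive library numbers, 1 from each group, in which the median deviation was 0.23, against -0.20 to 0.06 in the other runs. The part of muscle RNA or of the run in these values was not tested, and results with and without HFD-STZ-DR replicate 4 are given above.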

How the results depend on the processing

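No paired analysis was possible because the labels give the groups no shared replicate numbers, and the run of consecutive library numbers was used as a covariate instead. Of 1070 alternatives of 45 results for named genes, 1032 kept direction and side of the threshold, 11 lost it, 0 gained it and 27 turned direction, 20 of them with Acsm3. Of 723 alternatives of counts and medians, 706 stayed within the limits set and 17 moved. The cause of these changes was not tested.

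In HFD against SD mice at 24 weeks 0 members passed with no filter (Acsm3 adjusted p = 0.0537) or without the high-muscle libraries, and 0 to 1 on leaving out each sample. In HFD-STZ mice, 24 against 16 weeks, the 16 members with an unadjusted p under 0.05 became 5 with all 8 groups in 1 fit, 9 with the run added, 10 with centred samples, 4 with the white adipocyte score and 3 with 3 scores. The members rising with the muscle score went from 23 to 2 without the high-muscle libraries. With 3 scores the medians moved to -0.17 (HFD against SD, 16 weeks), 0.031 (HFD-STZ against HFD, 16 weeks), -0.079 (SD, 24 against 16 weeks) and 0.047 (HFD-STZ, 24 against 16 weeks).

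Directions turned as follows. With the white adipocyte score, Acsm5 in HFD against SD mice at 16 weeks became -0.22, Hsd17b4 in HFD-STZ-DR against HFD-STZ mice 0.040, and Acsm3 -0.33 between ages in SD and -0.26 in HFD-STZ mice. With 3 scores, these became -0.11, 0.069, -0.076 and -0.94, Cpt2 in HFD against SD mice at 16 weeks -0.17, Acadm and Acadvl between ages in SD mice -0.060 and -0.036, and Acsm3 in HFD-STZ-DR against HFD-DR mice 0.36. With the run added Acsm3 between ages in HFD-STZ mice was -0.094, and without the high-muscle libraries 0.037 between ages in HFD mice. Leaving out each sample, Acsm3 ran from -1.0 to 0.067 in HFD against SD, from -0.78 to 0.29 in HFD-STZ against SD and from -4.6e-05 to 0.39 in HFD-STZ against HFD mice at 16 weeks. It ran from -0.014 to 0.29 in HFD-STZ-DR against HFD-STZ mice, and between ages from -0.22 to 0.13 in HFD and from -0.044 to 0.38 in HFD-STZ mice. Depth per gene is unknown, so what low values such as those of Acsm3 can show is limited by the spread between samples.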
